A study of Homo sapiens with 30 samples.

Results

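The genes described here are the 10 members of a set of chromatin regulators named by symbol: the histone methyltransferases EZH2 and EZH1, the other Polycomb repressive complex 2 (PRC2) subunits SUZ12, EED, JARID2, RBBP4 and RBBP7, the demethylase KDM1A (LSD1), its scaffold RCOR1 (CoREST), and KDM6B, a demethylase that acts against PRC2 and is therefore not itself a corepressor. The rule uses the names only, and the members make up 10 of 23710 gene symbols in the count files and 10 of 23616 in the FPKM files, where they are represented by 20 transcripts. All 10 passed the filters on low values in every comparison. RNA was sequenced from 30 samples of V16D cells, a castration-resistant derivative of the LNCaP prostate cancer line, and MR49F cells, an enzalutamide-resistant derivative raised from LNCaP cells in castrated mice and maintained in enzalutamide but withdrawn from it before plating. In 10% full serum, V16D and MR49F cells received 0.1% vehicle or 10 µM enzalutamide, an antiandrogen, for 24 h (12 samples). In 10% charcoal-stripped serum, from which steroids have been removed, MR49F cells were held for 72 h and then given vehicle, 10 µM enzalutamide, 1 nM dihydrotestosterone (DHT, a natural androgen), 500 nM JQ-1 (an inhibitor of BET bromodomain proteins), or JQ-1 combined with either enzalutamide or DHT, for 24 h (18 samples). Each of the 10 conditions had 3 replicates, and the material of 2 wells was combined for each. The methods call them biological replicates, the labels describe wells plated in triplicate, and separate days or passages are not stated, so p-values measure the spread between these samples. For JQ-1 the labels give 24 h as for every sample, whereas the study describes the JQ-1 experiment by reference to a longer treatment, and the label is used here. All MR49F results come from a single derived line.

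PRC2 places methyl groups on lysine 27 of histone H3 and thereby keeps genes silent. EZH2 or its relative EZH1 carries the catalytic activity, EED reads the finished mark, SUZ12 holds the core together, RBBP4 and RBBP7 bind histones and also serve in other complexes, and JARID2 is an accessory subunit that helps to recruit and stimulate the core. LSD1, encoded by KDM1A, removes methyl groups from lysine 4 of histone H3 within the CoREST complex, and KDM6B removes the mark that PRC2 sets. In prostate cancer EZH2 is known as a marker of proliferating and advanced tumours.

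The share of reads assigned to genes differed between the serum experiments. Full serum libraries held 13170504 to 21154962 reads on genes (73.0% to 77.8% of counted reads), while stripped serum libraries held 982130 to 1813262 (5.13% to 7.66%). Of 40 annotated genes with a median of at most 10 counts in full serum and at least 100 in stripped serum, 36 (90%) overlapped an expressed gene on the opposite strand, against 619 of 4011 (15.4%) among genes with at least 1000 counts in full serum. The libraries were strand-specific, the strand setting used in counting is not given in the sources used here, and its part in this difference was not tested. Stripped serum counts of the members may therefore not be reads of their own strand, and they are given beside the FPKM with that limit. The FPKM (fragments scaled to transcript length and library depth) do not rest on these counts, so FPKM lead in stripped serum and counts lead in full serum. MR49F vehicle replicate 1 in full serum stood apart from replicates 2 and 3 (chi-square per degree of freedom of 9.87 and 11.6, against 2.24 between the latter). Calls of members that rest on it are given with and without it. The gene lists, the ratios between serum conditions and the ratios of FPKM include it and were not repeated without it. The luminal prostate markers KLK3, KLK2, TMPRSS2, HOXB13 and FOLH1 were over 1 FPKM in 30 of 30 samples. CHGA and INSM1 (neuroendocrine), KRT5 and TP63 (basal), DCN (fibroblast) and PTPRC (leukocyte) were over 1 FPKM in 0 of 30, whereas the neuroendocrine marker SYP passed 1 FPKM in 22 of 30 (0.585 to 9.55 FPKM) and COL1A1 in 17 of 30 (0.616 to 1.77 FPKM).

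RBBP4 is the member most exposed to the counting of strands. The exons of SYNC, a gene on the opposite strand, cover 2160 of the 9470 exonic bases of RBBP4 (22.8%). SYNC had 0 to 3 counts in full serum but 874 to 1913 in stripped serum, while its FPKM were 18.5 to 23.8 and 13.2 to 20.7. RBBP4 counts ran the other way, from 3160 to 5477 in full serum to 139 to 350 in stripped serum, with FPKM of 20.8 to 26.9 and 17.3 to 26.7. The FPKM of both genes thus stayed in neighbouring ranges while their counts changed places. TXLNG overlaps RBBP7 by 179 bases on the opposite strand. Counts of the members in stripped serum were low, for example 26 to 78 reads of EZH2 in a library. Whether the FPKM were made with strand is not stated. If they were made without it, reads of RBBP4 and SYNC cannot be told apart where the genes overlap. In stripped serum the mean FPKM of both genes were highest with DHT and lowest with JQ-1 alone. With vehicle, DHT and JQ-1, RBBP4 averaged 20.6, 26.3 and 17.5 FPKM there, and SYNC 16.8, 20.4 and 14.3 FPKM. How far the genes share reads in the FPKM was not tested, and the FPKM results of RBBP4 carry this limit.

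**Figure D1:**
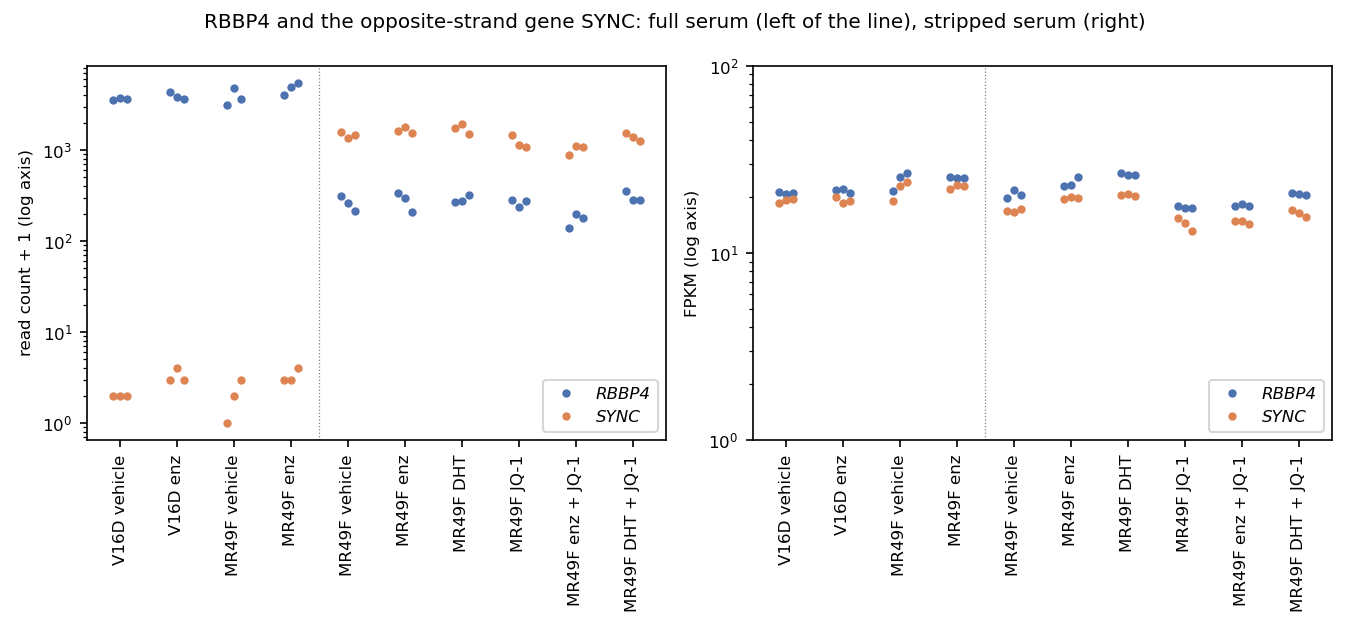
Read counts (left, count plus 1 on a log axis) and FPKM (right, log axis) of RBBP4 and of SYNC, the gene that overlaps it on the opposite strand, with a point for each of the 30 samples. SYNC counts are at most 3 in full serum and at least 874 in stripped serum, while its FPKM lie between 13.2 and 23.8 throughout.

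The members lie on 6 autosomes and X (GRCh37). EZH2 is at chr7:148504349-148581413, EZH1 at chr17:40852293-40897067, SUZ12 at chr17:30264026-30328057, EED at chr11:85912254-85989855 and JARID2 at chr6:15246300-15522273. RBBP4 is at chr1:33116743-33151812, RBBP7 at chrX:16857406-16888485, KDM1A at chr1:23345936-23410182, RCOR1 at chr14:103058986-103196898 and KDM6B at chr17:7737535-7758114. Because EZH2 varied together with proliferation genes in stripped serum, as described further on, the promoter windows that RefSeq gives for the members (GRCh38.p14, 250 bases before the start site and 50 after) were searched on both strands for the E2F words TTTCCCGC, TTTCGCGC, TTTGCCGC and TTTGGCGC. All 10 members had a window, 15 in all. A word was found in 3 of 15 member windows (20%), belonging to 3 of 10 members (EZH2, SUZ12 and EZH1), against 1164 of 35116 windows of all genes (3.31%) and 1090 of 27305 genes (3.99%). These are matches of letters and not measured sites. The windows that hold a word are printed 5′ to 3′ on the strand of the gene, to 20 bases after the start, with the word in capitals. They are EZH2 (chr7:148884272-148884541, minus strand, the word beginning 1 base after the start base), SUZ12 (chr17:31936757-31937026, plus strand, 189 bases before the start) and EZH1 (chr17:42745021-42745290, minus strand, 115 bases before the start, where the word TTTGCCGC reads on the other strand).
EZH2: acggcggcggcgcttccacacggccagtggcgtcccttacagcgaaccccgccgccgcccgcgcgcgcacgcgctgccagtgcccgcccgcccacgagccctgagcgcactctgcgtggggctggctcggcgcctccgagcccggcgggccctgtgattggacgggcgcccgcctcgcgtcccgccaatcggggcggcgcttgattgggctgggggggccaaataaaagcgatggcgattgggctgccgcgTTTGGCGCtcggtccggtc
SUZ12: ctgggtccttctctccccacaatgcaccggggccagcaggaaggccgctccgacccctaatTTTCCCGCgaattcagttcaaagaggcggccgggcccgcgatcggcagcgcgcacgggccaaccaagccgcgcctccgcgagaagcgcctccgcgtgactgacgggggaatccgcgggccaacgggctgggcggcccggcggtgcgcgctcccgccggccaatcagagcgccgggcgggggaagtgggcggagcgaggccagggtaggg
EZH1: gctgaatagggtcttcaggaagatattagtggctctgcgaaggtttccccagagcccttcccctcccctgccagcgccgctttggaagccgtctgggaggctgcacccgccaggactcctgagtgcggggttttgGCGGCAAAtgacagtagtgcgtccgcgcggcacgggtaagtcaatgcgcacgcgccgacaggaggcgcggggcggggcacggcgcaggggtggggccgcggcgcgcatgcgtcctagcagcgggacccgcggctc

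Per length, RBBP7 was the most abundant member in each of the 10 conditions and JARID2 the least abundant in 8 of them, EED (vehicle) and EZH2 (JQ-1) being lowest in the other stripped serum conditions. In V16D cells with vehicle in full serum, RBBP7 averaged 101 ± 1.52 FPKM (mean ± SD, n = 3 here and below), followed by KDM1A at 35.2 ± 0.559, SUZ12 at 31.9 ± 0.421 and EZH2 at 31.5 ± 1.22 FPKM. SUZ12 and EZH2 overlapped, so their order is not set, whereas the lower members RBBP4 (21 ± 0.25), RCOR1 (12 ± 0.102), EED (10.0 ± 0.214), KDM6B (8.81 ± 0.217), EZH1 (4.72 ± 0.262) and JARID2 (3.34 ± 0.0373 FPKM) each lay below their neighbour in every sample. In MR49F cells with vehicle in stripped serum the order was different. RBBP7 (52.8 ± 1.9 FPKM) and KDM1A (22.5 ± 0.546) again led, RBBP4, SUZ12 and KDM6B overlapped at 20.6, 20.5 and 20.2 FPKM, RCOR1 stood at 12.2 ± 0.0413, and EZH2 (7.46 ± 0.864), JARID2 (7.22 ± 0.552), EZH1 (6.82 ± 0.268) and EED (6.32 ± 0.438 FPKM) formed a group in which each overlapped the next.

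**Figure D2:**
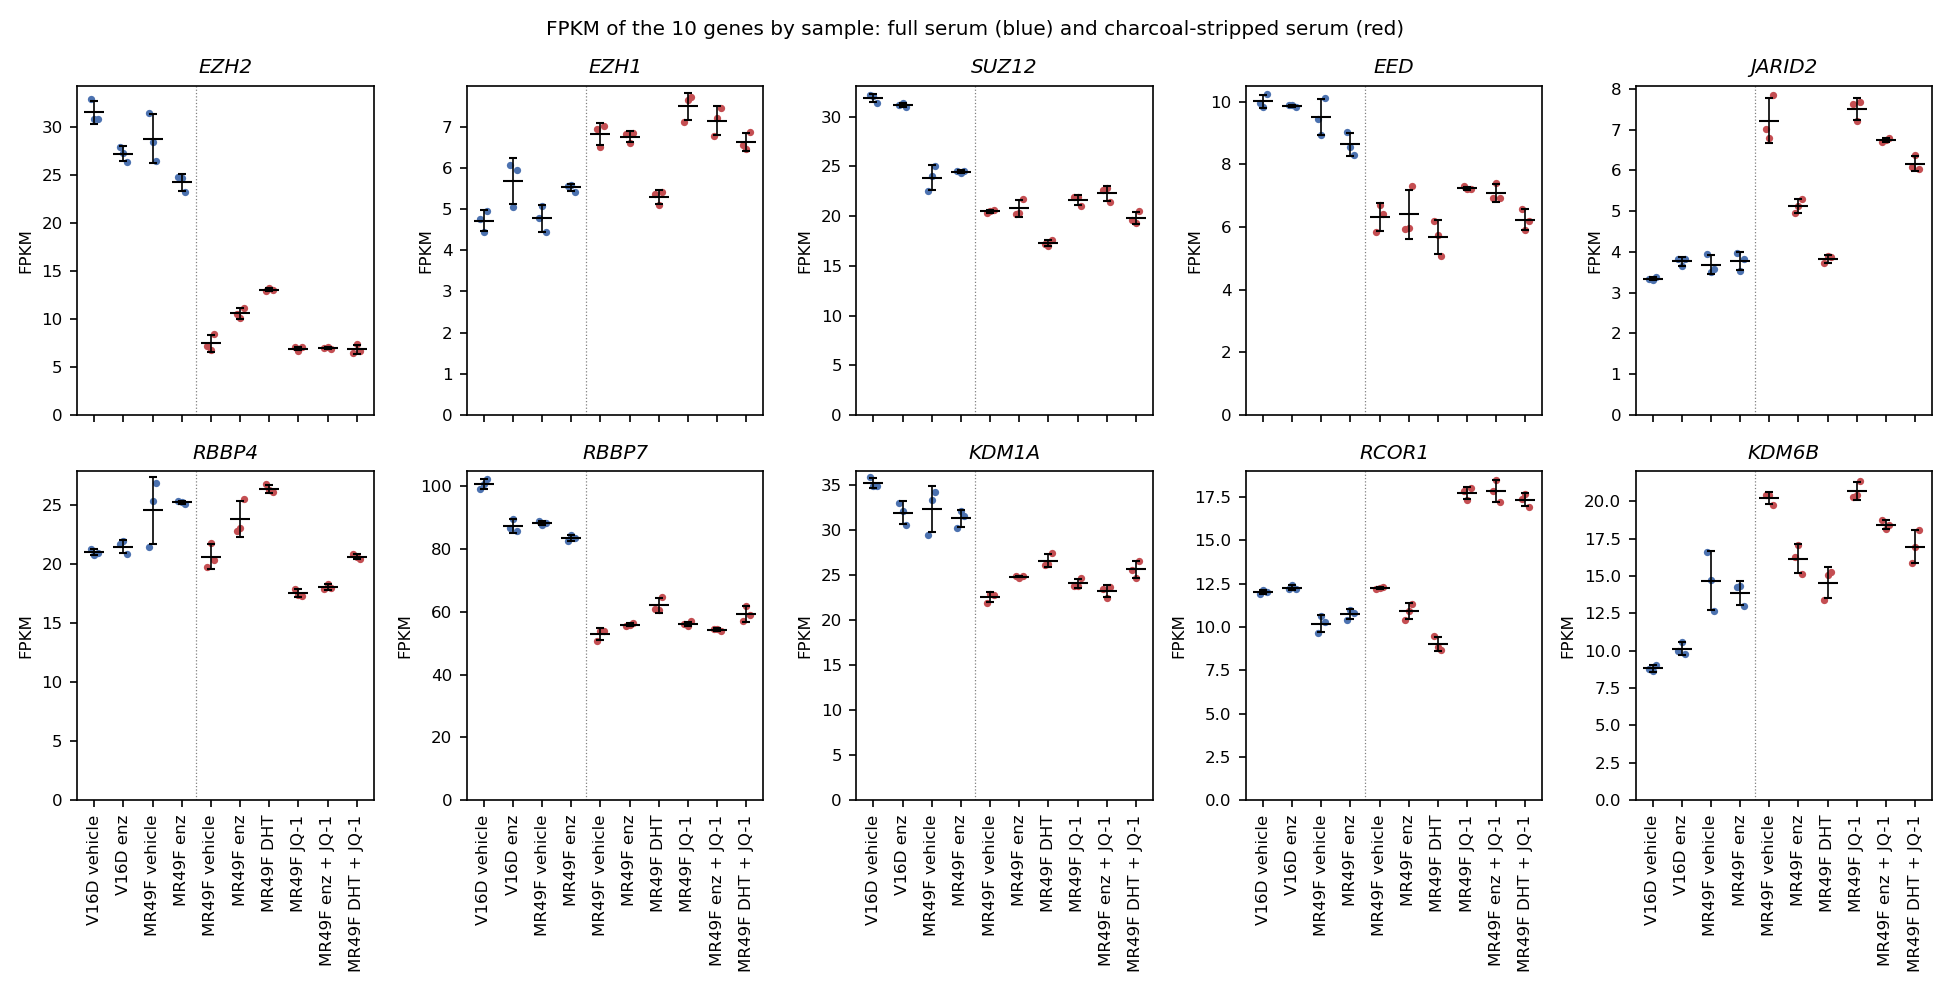
FPKM of each of the 10 genes by condition, with a point for each sample and black bars for the mean ± SD of 3 samples, full serum in blue and stripped serum in red, each panel on its own axis from 0. EZH2 averages 24.2 to 31.5 FPKM in full serum and 6.82 to 13 FPKM in stripped serum, where it is highest with DHT and JARID2, RCOR1 and KDM6B are lowest with DHT.

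The comparison of DHT with vehicle in stripped serum asks how the members respond when an androgen is given back. EZH2 rose, RBBP4, RBBP7 and KDM1A rose by less, and JARID2, KDM6B, RCOR1, EZH1 and SUZ12 fell. In total, 9 of 10 members were called (adjusted p of at most 0.05, limma on log2(FPKM + 1)), where 72.1% of all genes tested were called. On the read counts, edgeR called 5 of 10 members, against 37.5% of genes. RNA from whole cultures was measured, so a change in RNA per cell and a change in the share of cells that express a gene cannot be told apart.

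The catalytic subunit EZH2 was at 7.14, 6.8 and 8.44 FPKM with vehicle and 12.9, 13.2 and 13 FPKM with DHT. All DHT samples lay above all vehicle samples, and the log2 fold change was 0.73 (SE 0.0689, adjusted p = 1.85e-05). Its relative EZH1 moved the other way, from 6.94, 6.52 and 7.01 to 5.37, 5.1 and 5.4 FPKM. The groups of EZH1 did not overlap, with a log2 fold change of -0.31 (SE 0.0478, adjusted p = 0.000367). Of the core subunits, SUZ12 fell by 0.23 on the log2 scale (adjusted p = 0.000389), while EED, the subunit that reads the mark, had 5.84, 6.7 and 6.43 FPKM with vehicle and 6.19, 5.76 and 5.09 with DHT, overlapping groups with a log2 fold change of -0.13 (95% interval -0.30 to 0.031, adjusted p = 0.124).

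JARID2, the accessory subunit, showed a large fall. It was at 7.02, 6.79 and 7.84 FPKM with vehicle and 3.72, 3.9 and 3.87 FPKM with DHT, so that every DHT sample lay well below every vehicle sample, with a log2 fold change of -0.76 (SE 0.0576, adjusted p = 4.73e-06). The histone-binding subunits both rose, RBBP4 by 0.34 (SE 0.0439) and RBBP7 by 0.23 (SE 0.044) on the log2 scale, at adjusted p = 0.000132 and 0.00147. Within the LSD1 complex the enzyme and its scaffold parted: KDM1A went from 21.9, 22.9 and 22.8 to 26.1, 26.2 and 27.4 FPKM, and RCOR1 from 12.2, 12.2 and 12.3 to 9.5, 8.86 and 8.69 FPKM. Neither gene's groups overlapped. The log2 fold changes were 0.23 (SE 0.0391, adjusted p = 0.000726) for KDM1A and -0.40 (SE 0.0444, adjusted p = 4.97e-05) for RCOR1. The demethylase KDM6B fell from 20.4, 20.4 and 19.7 to 13.4, 15 and 15.3 FPKM, a log2 fold change of -0.45 (SE 0.0536, adjusted p = 8.17e-05). The count test called EZH2 (0.94), JARID2 (-0.70), KDM6B (-0.48), RBBP7 (0.45) and RBBP4 (0.26). The RBBP4 call on counts was lost without vehicle replicate 1, 2 or 3 or DHT replicate 2 or 3 (adjusted p = 0.064 to 0.12), and the FPKM call of EED was gained without DHT replicate 1 (adjusted p = 0.044).

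Enzalutamide, given in the same medium, asks whether the antiandrogen moves these genes in cells resistant to it. It moved EZH2 up and JARID2, KDM6B and RCOR1 down, as DHT did, and both comparisons share the 3 vehicle samples. Limma called 6 of 10 members, where 38.7% of all genes were called. EZH2 with enzalutamide was at 10.5, 10.1 and 11.2 FPKM, above all vehicle samples and below all DHT samples, with a log2 fold change over vehicle of 0.46 (SE 0.0736, adjusted p = 0.00139). JARID2 was at 4.95, 5.12 and 5.29 FPKM, between the vehicle and DHT samples, with a log2 fold change of -0.42 (SE 0.0586, adjusted p = 0.000588). KDM6B was at 16.3, 17.1 and 15.2 FPKM, with a log2 fold change of -0.31 (SE 0.0502, adjusted p = 0.00154). Its enzalutamide samples lay below all vehicle samples. Smaller changes were called for RBBP4 (0.20), RCOR1 (-0.15) and KDM1A (0.13). EZH1, SUZ12 and EED were not called, with log2 fold changes of -0.012 (95% interval -0.12 to 0.095), 0.020 (95% interval -0.079 to 0.12) and 0.014 (95% interval -0.16 to 0.19).

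The smaller calls were marginal, each being lost when any of several libraries was left out, and 3 to 5 members were called in these fits. RBBP4 was lost without vehicle replicate 1 or 3 or enzalutamide replicate 3 (adjusted p = 0.0568 to 0.0762), KDM1A without vehicle replicate 1 or 3 or enzalutamide replicate 1 or 2 (adjusted p = 0.0504 to 0.0977), and RCOR1 without any of the vehicle replicates or enzalutamide replicate 1 or 2 (adjusted p = 0.0591 to 0.0715). On the read counts, edgeR called 0 of 10 members (7.26% of all genes), 4 had an unadjusted p under 0.05 (EZH2, JARID2, RBBP7 and KDM6B), and DESeq2 called 0. EZH2 was called on counts without vehicle replicate 3 or enzalutamide replicate 3 (adjusted p = 0.0306 to 0.0482) and JARID2 without enzalutamide replicate 3 (adjusted p = 0.0171). Enzalutamide replicate 3 held 27 reads of EZH2, against 78 and 66 in replicates 1 and 2.

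DHT compared directly with enzalutamide gave 7 of 10 calls (limma, 57.4% of all genes). EZH2 was higher with DHT by 0.28 (SE 0.0483, adjusted p = 0.00108) on the log2 scale, RBBP7 by 0.15 and RBBP4 by 0.14. JARID2 (-0.34), EZH1 (-0.30), SUZ12 (-0.25) and RCOR1 (-0.25) were lower with DHT. KDM1A (0.095, adjusted p = 0.0656) and KDM6B (-0.14, adjusted p = 0.0784) did not pass. The RBBP4 call was lost without DHT replicate 1, 2 or 3 or enzalutamide replicate 1 or 2 (adjusted p = 0.0573 to 0.122), while KDM6B passed without enzalutamide replicate 3 (adjusted p = 0.0412). On counts, edgeR called 0 of 10 (19.4% of all genes), 1 member (EZH2) had an unadjusted p under 0.05, and DESeq2 called 0. For EZH1 and SUZ12 the direct comparison thus passed the test, with DHT samples at 5.37, 5.1 and 5.4 FPKM against enzalutamide samples at 6.81, 6.6 and 6.86 for EZH1, and 17.2, 17 and 17.6 against 20.3, 20.3 and 21.8 for SUZ12. Both genes were lower in every DHT sample than in any enzalutamide sample.

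**Figure D3:**
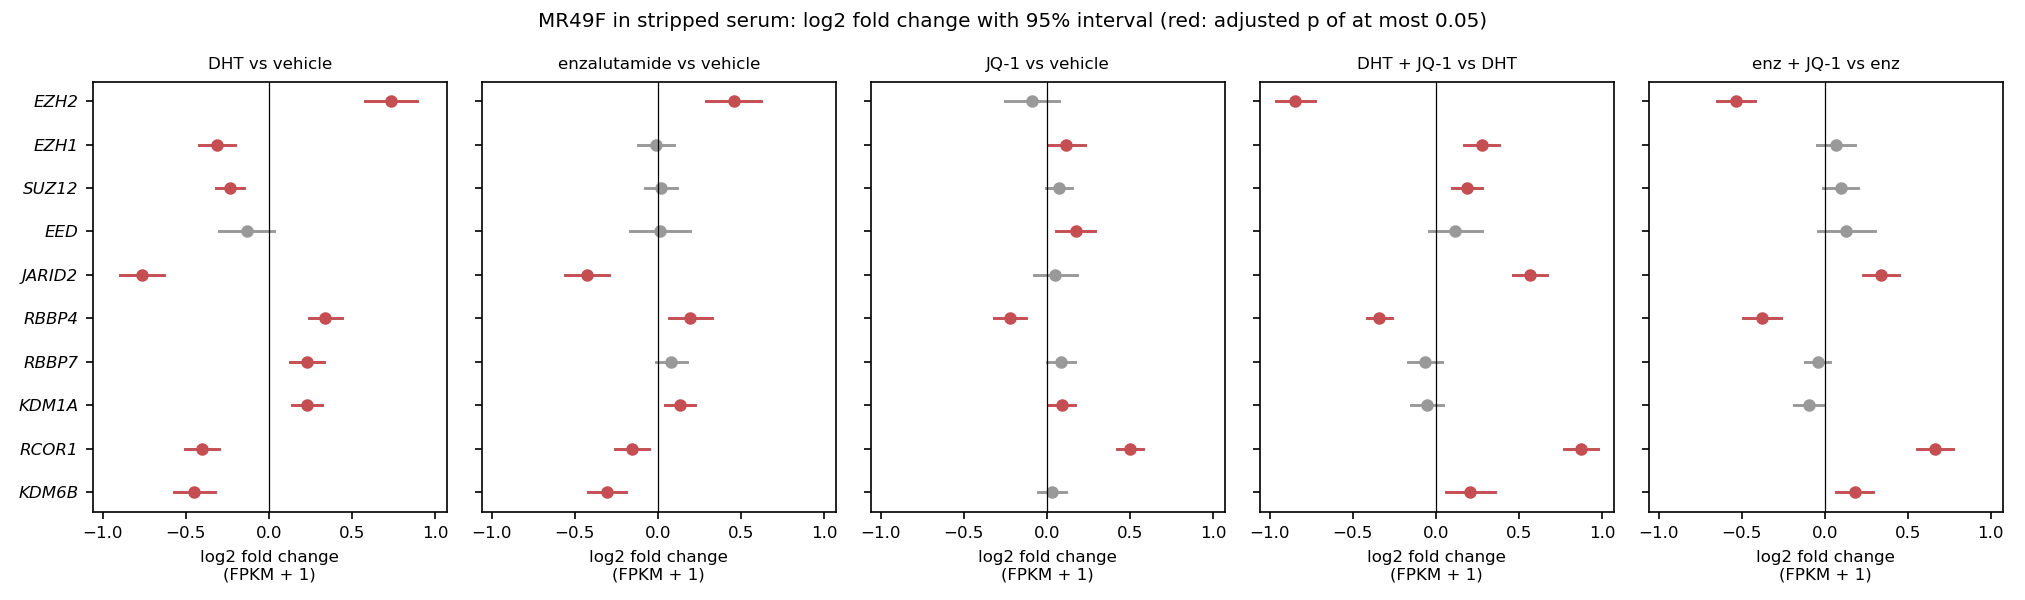
Log2 fold changes on the log2(FPKM + 1) scale (points) with 95% intervals (lines) for the 10 genes in the stripped serum comparisons, called genes in red and others in grey. EZH2 is at 0.73 with DHT and -0.85 when JQ-1 is added to DHT, and RCOR1 is at 0.50, 0.67 and 0.87 in the comparisons of JQ-1 without a ligand, with enzalutamide and with DHT.

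Among the members, JQ-1 without a ligand changed RCOR1 by the largest amount. Limma called 5 of 10 members, against 75.1% of all genes. RCOR1, the CoREST scaffold, went from 12.2, 12.2 and 12.3 FPKM with vehicle to 17.8, 17.3 and 18 FPKM with JQ-1, every JQ-1 sample lying far above every vehicle sample, with a log2 fold change of 0.50 (SE 0.0337, adjusted p = 2.64e-06). RBBP4 fell by 0.22 (adjusted p = 0.00143) and EED rose by 0.17 (adjusted p = 0.0139). EZH1 (0.12) and KDM1A (0.091) were called narrowly. EZH2 was at 7.03, 6.69 and 7.04 FPKM, overlapping the vehicle samples, with a log2 fold change of -0.091 (95% interval -0.25 to 0.071, adjusted p = 0.268), and JARID2 at 0.052 (95% interval -0.077 to 0.18) and KDM6B at 0.032 (95% interval -0.050 to 0.12) were not called either. The EZH1 call was lost without any vehicle replicate or JQ-1 replicate 2 or 3 (adjusted p = 0.0513 to 0.145) and that of KDM1A without any of the 6 libraries (adjusted p = 0.0542 to 0.139), leaving 3 to 4 calls. With FPKM scaled by trimmed means (TMM), 8 members were called, 7 higher and 1 lower, against 4 higher and 1 lower without scaling. Of 12203 genes tested, 9216 were called with scaling and 9170 without. The count test with edgeR called 2 of 10 (46.6% of all genes), RCOR1 at 0.77 (adjusted p = 9.00e-07) and RBBP7 at 0.35 (adjusted p = 0.00408).

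When JQ-1 was added to DHT, EZH2 fell, JARID2 rose and RCOR1 rose. EZH2 was at 6.45, 7.36 and 6.65 FPKM with both agents, below every DHT sample and overlapping the vehicle samples, with a log2 fold change against DHT of -0.85 (SE 0.0511, adjusted p = 1.32e-06). JARID2 was at 6.08, 6.37 and 6.04 FPKM, above every DHT sample and below every vehicle sample, with a log2 fold change of 0.57 (SE 0.0448, adjusted p = 6.07e-06). RCOR1 was at 17.4, 17.7 and 17 FPKM, above every DHT and vehicle sample, with a log2 fold change of 0.87 (SE 0.0444, adjusted p = 4.99e-07). Limma called 7 of 10 members in all, against 78.8% of all genes. The others were RBBP4 (-0.34), EZH1 (0.28), KDM6B (0.21) and SUZ12 (0.19), and KDM1A (-0.052, 95% interval -0.15 to 0.043) and RBBP7 (-0.064, 95% interval -0.17 to 0.039) were not called. The KDM6B call was lost without DHT with JQ-1 replicate 3 (adjusted p = 0.0527). On counts, edgeR called 5 of 10 (54.7% of all genes): EZH2 (-0.89), RCOR1 (1.19), JARID2 (0.51), KDM6B (0.40) and EZH1 (0.43). The EZH1 call on counts was lost with DESeq2 (adjusted p = 0.151) and without DHT replicate 1 or DHT with JQ-1 replicate 2 or 3 (adjusted p = 0.0917 to 0.334).

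Adding JQ-1 to enzalutamide gave the same directions for the leading genes. EZH2 was at 6.99, 7.09 and 6.91 FPKM against 10.5, 10.1 and 11.2 with enzalutamide alone, with a log2 fold change of -0.53 (SE 0.0499, adjusted p = 1.19e-05). JARID2 was at 6.69, 6.75 and 6.78 FPKM, above every enzalutamide sample, with a log2 fold change of 0.34 (SE 0.0473, adjusted p = 0.000159). RCOR1 was at 17.9, 18.5 and 17.2 FPKM, with a log2 fold change of 0.67 (SE 0.0479, adjusted p = 2.33e-06). RBBP4 (-0.38) and KDM6B (0.18) were also called, 5 of 10 members in all against 75.7% of all genes. With TMM-scaled FPKM 8 were called, 6 higher and 2 lower, against 3 higher and 2 lower without scaling. Of 12148 genes tested, 9210 were called with scaling and 9193 without. From counts, 3 of 10 were called with edgeR (45.1% of all genes), RCOR1 (0.72), RBBP4 (-0.44) and KDM6B (0.34), and EZH2 (-0.34, adjusted p = 0.17) passed without enzalutamide replicate 3 (adjusted p = 0.0213).

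Whether the effect of JQ-1 depended on the ligand was tested as an interaction. For DHT, limma called 6 of 10 members (48% of all genes). The log2 fold change with JQ-1 in the presence of DHT minus that in its absence was -0.75 (SE 0.092, adjusted p = 4.05e-05) for EZH2, 0.52 (SE 0.0696, adjusted p = 8.52e-05) for JARID2 and 0.37 (SE 0.0505, adjusted p = 8.81e-05) for RCOR1. These held in every setting tried on FPKM. The other calls, EZH1 (0.16), RBBP7 (-0.15) and KDM1A (-0.14), had adjusted p of 0.0495, 0.0447 and 0.0353 and were lost, at adjusted p = 0.0525 to 0.118, 0.0612 to 0.105 and 0.0576 to 0.0886, when any of 10, 7 and 5 of the 12 libraries, respectively, was left out. For EZH1 these were all but vehicle replicate 2 and JQ-1 replicate 3. For RBBP7 they were vehicle replicate 1, DHT replicate 3, JQ-1 replicates 1 to 3 and DHT with JQ-1 replicates 1 and 3, and for KDM1A vehicle replicate 1, DHT replicate 3, JQ-1 replicate 3 and DHT with JQ-1 replicates 1 and 2. On counts, edgeR called 1 of 10 (12.3% of all genes), EZH2 at -0.92 (adjusted p = 0.0147), a call that was lost with DESeq2 (adjusted p = 0.0679) and without vehicle replicate 1 or 2 or JQ-1 replicate 3 (adjusted p = 0.0515 to 0.0614). For enzalutamide, limma called 3 of 10 (19.2% of all genes): EZH2 at -0.44 (SE 0.089, adjusted p = 0.00499), JARID2 at 0.29 (SE 0.0696, adjusted p = 0.0133) and KDM1A at -0.19 (SE 0.0464, adjusted p = 0.016). RCOR1 stood at 0.16 (adjusted p = 0.0505) and passed without enzalutamide replicate 3 or enzalutamide with JQ-1 replicate 3 (adjusted p = 0.028 to 0.0367). On counts, edgeR called 0 of 10 (0.895% of all genes), 1 member (KDM6B) had an unadjusted p under 0.05, and DESeq2 called 0.

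In full serum EZH2 was lower with enzalutamide in both lines. In V16D cells edgeR called 5 of 10 members on counts, against 37.5% of all genes. EZH2 was at 118, 109 and 109 CPM (read counts scaled to the library total) with vehicle and 97.5, 94.6 and 93.2 CPM with enzalutamide, groups that did not overlap, with a log2 fold change of -0.24 (SE 0.0346, adjusted p = 1.26e-10). RBBP7 (-0.24) and KDM1A (-0.17) also fell, and EZH1 (0.24) and KDM6B (0.17) rose. EZH1 was at 30.9, 28.8 and 31.9 and 38.6, 31.8 and 37.8 CPM, and its groups overlapped because enzalutamide replicate 2 lay within the vehicle range. The EZH1 call was lost with limma on FPKM (adjusted p = 0.0516) and that of KDM6B when all full serum groups were fitted together (adjusted p = 0.133).

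In MR49F cells edgeR called 1 of 10 members with enzalutamide, against 8.48% of all genes. EZH2 was at 114, 99.9 and 91.7 CPM with vehicle and 86, 85.1 and 79.9 CPM with enzalutamide, with a log2 fold change of -0.29 (SE 0.073, adjusted p = 0.0353). The groups did not overlap, and the highest vehicle value was that of replicate 1. The call was lost without enzalutamide replicate 1, 2 or 3 or vehicle replicate 2 (adjusted p = 0.087 to 0.178) and with limma on FPKM (adjusted p = 0.116). Without vehicle replicate 1 there were 4 calls, EZH2 at -0.21 (adjusted p = 0.000205), EZH1 at 0.18 (adjusted p = 0.0488), RBBP7 at -0.092 (adjusted p = 0.0469) and KDM1A at -0.13 (adjusted p = 0.011). In that fit 2533 of 14226 genes were called, against 1181 of 13927 with all samples.

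The difference between the lines in their response to enzalutamide was called by edgeR for 0 of 10 members (6.95% of all genes). RBBP7 and KDM6B had an unadjusted p under 0.05, and DESeq2 and limma called 0. Without MR49F vehicle replicate 1, 2 were called, RBBP7 at 0.14 (adjusted p = 0.0119) and KDM6B at -0.18 (adjusted p = 0.0204), the latter also without MR49F vehicle replicate 3 (adjusted p = 0.00162). Over all genes, 1523 of 14674 were called without replicate 1 and 1579 of 14672 without replicate 3, against 1006 of 14471 with all samples.

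Between the lines with vehicle, edgeR called 6 of 10 members, against 63.7% of all genes. KDM6B was higher in MR49F cells, at 163, 139 and 117 CPM against 83.5, 81.5 and 85.1 CPM in V16D cells. The MR49F values lay above all V16D values but were spread widely, with replicate 1 the highest, and the log2 difference was 0.74 (SE 0.0935, adjusted p = 2.71e-05). SUZ12 was lower in MR49F cells, at 139.6, 143 and 146 CPM against 194, 192 and 188 CPM, with tight and separate groups and a log2 difference of -0.42 (SE 0.0453, adjusted p = 6.82e-06). RCOR1 (-0.24), RBBP7 (-0.19) and KDM1A (-0.13) were lower and RBBP4 (0.23) higher. The KDM1A call was lost without MR49F vehicle replicate 2 or any V16D vehicle replicate (adjusted p = 0.0686 to 0.157) and with DESeq2 (adjusted p = 0.0939). Without MR49F vehicle replicate 1, 7 members were called, with KDM6B at 0.63 (adjusted p = 3.70e-24), SUZ12 at -0.40 (adjusted p = 1.36e-17) and EZH2 added at -0.22 (adjusted p = 6.95e-06). Of all genes, 9783 were then called, against 8929 with all samples. EZH1 (0.014, 95% interval -0.15 to 0.17), EED (-0.12, 95% interval -0.27 to 0.031) and JARID2 (0.12, 95% interval -0.057 to 0.29) were not called.

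**Figure D4:**
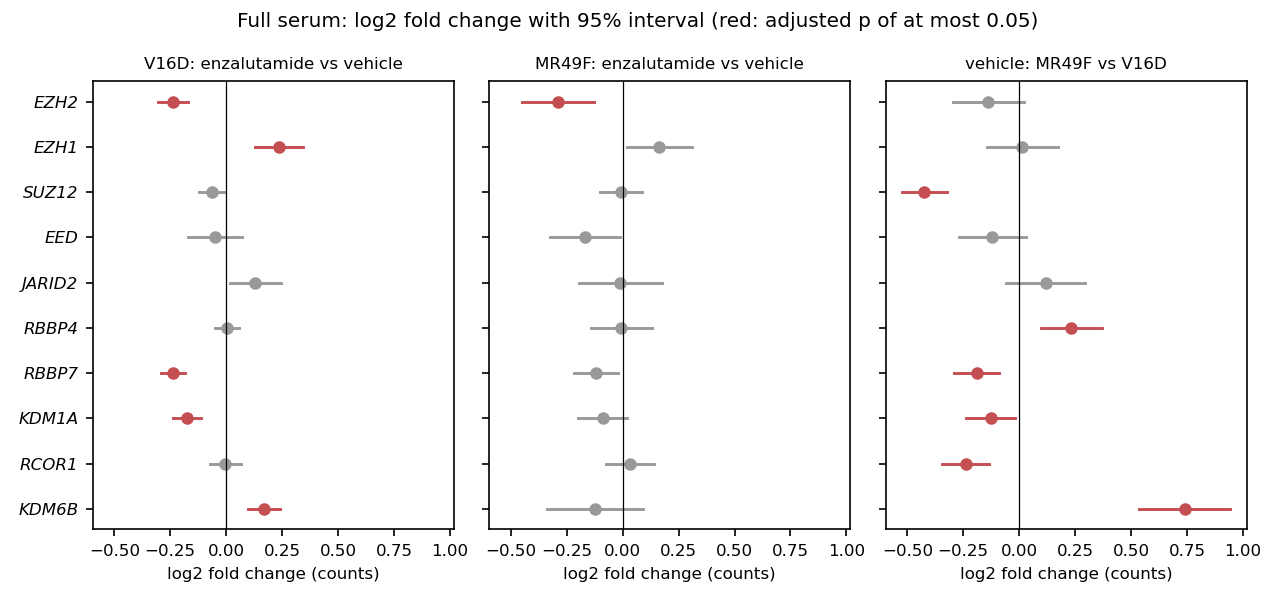
Log2 fold changes on counts (points) with 95% intervals (lines) for the 10 genes in the full serum comparisons, called genes in red and others in grey. EZH2 is at -0.24 with enzalutamide in V16D cells and -0.29 in MR49F cells, and KDM6B at 0.74 and SUZ12 at -0.42 are the members farthest from 0 between the lines.

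Levels in MR49F cells with vehicle can be set side by side between the serum conditions, with no test, because the experiments were run and counted separately. EZH2 averaged 28.7 ± 2.54 FPKM in full serum and 7.46 ± 0.864 in stripped serum, a ratio of 0.26, where the median over 7900 genes was 0.944 and the proliferation gene MKI67 had a ratio of 0.152. The core and histone-binding subunits were also lower in stripped serum, with ratios of 0.857 for SUZ12, 0.664 for EED, 0.84 for RBBP4 and 0.599 for RBBP7, as was KDM1A at 0.697. JARID2 (1.96), EZH1 (1.43), KDM6B (1.38) and RCOR1 (1.2) were higher. Serum, run and counting cannot be told apart in these ratios. The full serum means include vehicle replicate 1, in which MKI67 was at 57.4 FPKM, against 48.5 and 46.2 in replicates 2 and 3.

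The balance between the PRC2 enzymes shifted with these levels. The ratio of EZH2 to EZH1 in FPKM was 6.9, 6.93 and 6.21 in the V16D vehicle samples and 6.57, 5.58 and 5.95 in the MR49F vehicle samples of full serum, and averaged 4.81 ± 0.51 and 4.38 ± 0.0902 with enzalutamide. In stripped serum it was 1.03, 1.04 and 1.2 with vehicle, near parity, 1.54, 1.53 and 1.63 with enzalutamide and 2.41, 2.58 and 2.4 with DHT. The 3 DHT values lay above every other stripped serum value. With JQ-1 the ratio averaged 0.925 ± 0.0573 alone, 0.981 ± 0.053 with enzalutamide and 1.03 ± 0.0956 with DHT. The ratio of EZH2 to KDM6B, the methyltransferase to the demethylase, averaged 3.57 ± 0.181 in V16D vehicle, 1.97 ± 0.102 in MR49F vehicle in full serum, and 0.37 ± 0.0506, 0.657 ± 0.0743 and 0.898 ± 0.0613 in stripped serum with vehicle, enzalutamide and DHT. KDM6B thus exceeded EZH2 in every stripped serum sample. These are ratios of RNA and are described without a test.

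**Figure D5:**
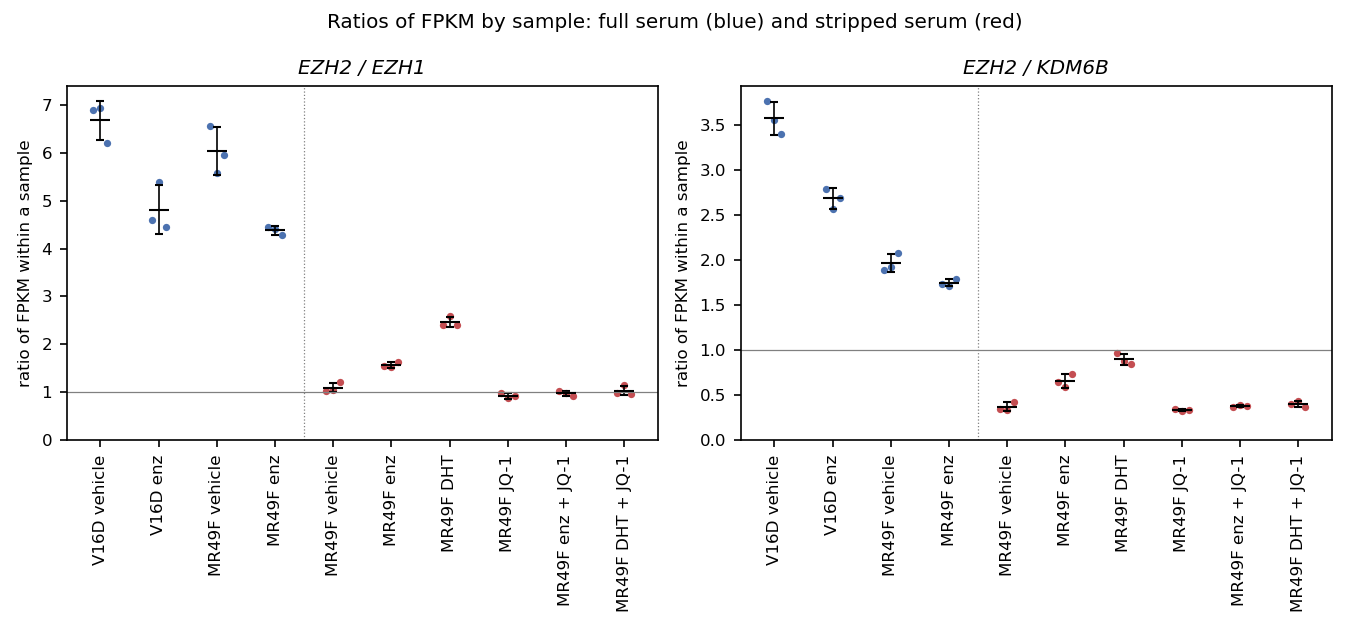
Ratio of EZH2 to EZH1 (left) and of EZH2 to KDM6B (right) in FPKM within each sample, with black bars for the mean ± SD of 3 samples and a grey line at 1, full serum in blue and stripped serum in red. EZH2 to EZH1 averages 4.38 to 6.68 in full serum and 0.925 to 2.46 in stripped serum, where it is highest with DHT.

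The counts of the gene lists that follow are to be read against the share of all genes called in the same comparison, which was 72.1% with DHT, 38.7% with enzalutamide, 75.1% with JQ-1 and 78.8% with JQ-1 added to DHT in stripped serum, and 37.5% in V16D cells, 8.48% in MR49F cells and 63.7% between the lines in full serum. The E2F and proliferation genes, a list of 16 to which EZH2 does not belong, moved largely in 1 direction in each ligand comparison. With DHT in stripped serum, 15 of 16 tested rose and 0 fell, with a median log2 fold change of 1.04 against -0.083 over all genes, and with enzalutamide 15 of 15 rose (median 0.77, all genes -0.013). RRM2, a subunit of ribonucleotide reductase, went from 8.96 ± 0.744 FPKM with vehicle to 19.8 ± 1.04 with enzalutamide and 28.8 ± 0.641 with DHT, and the replication licensing gene MCM5 from 7.79 ± 0.337 to 16.6 ± 1.35 and 21.6 ± 0.394 FPKM. JQ-1 without ligand raised 4 and lowered 9 of 15 (median -0.40, all genes -0.060), and JQ-1 with DHT lowered 14 of 16 (median -1.34, all genes -0.054), MCM5 reaching 1.84 ± 0.135 FPKM. With TMM-scaled FPKM, DHT raised 16 of 16, and JQ-1 without ligand raised 6 and lowered 9 of 15. JQ-1 with DHT then raised 1 and lowered 14 of 16. In full serum, enzalutamide lowered 12 and raised 1 of 16 in V16D cells (median -0.19, all genes 0.0038) and lowered 7 of 16 in MR49F cells (median -0.15, all genes 0.0095). Between the lines with vehicle, 1 of 16 was higher and 11 lower in MR49F cells (median -0.23, all genes -0.0049). EZH2 was not called there with all samples. The proliferation genes moved beside EZH2 in each comparison given here except that one and JQ-1 without ligand, where EZH2 was not called either. The share of cycling cells was not measured, and its part in the EZH2 values was not tested. These and the following list results of MR49F cells in full serum include vehicle replicate 1 and were not repeated without it.

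The partners of LSD1 and CoREST, 12 genes, mostly fell with DHT, as RCOR1 did: 2 rose and 10 fell (median -0.40, all genes -0.083). RCOR2, a relative of RCOR1, fell to 2.23 ± 0.394 FPKM from 5.84 ± 0.206, a log2 fold change of -1.09, PHF21A, a reader of unmethylated lysine 4 in the complex, fell by 0.59, and HMG20B, another subunit, rose by 0.72. With enzalutamide 1 rose and 7 fell (median -0.15), GSE1 among the latter at -0.39. With JQ-1 2 rose and 6 fell (median -0.15, all genes -0.060). On TMM-scaled FPKM, 2 rose and 9 fell with DHT, 1 and 6 with enzalutamide, and 2 and 4 with JQ-1. KDM1B, the other LSD1-type demethylase, rose with JQ-1 by 0.95, from 8.97 ± 0.428 to 18.3 ± 0.679 FPKM, and RCOR2 fell by 0.88. JQ-1 added to DHT raised 3 and lowered 4, a split that turned to 4 and 3 with TMM-scaled FPKM, with KDM1B again higher, at 1.00. In full serum 4 were higher and 5 lower in MR49F than in V16D cells, with RCOR2 at 2.25 (9.96 ± 2.33 against 2.09 ± 0.24 CPM). Enzalutamide raised 4 and lowered 1 in V16D cells and lowered 1, HMG20B, in MR49F cells.

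Of the 6 accessory subunits of PRC2 in the files, DHT raised 2 and lowered 2 (median 0.079, all genes -0.083), AEBP2 at -0.43 and MTF2, which binds DNA for PRC2, at -0.27. JQ-1 raised 1 and lowered 3 without ligand and raised 2 and lowered 2 with DHT, with MTF2 higher in both (0.30 and 0.43). Under TMM scaling of FPKM, DHT raised 3 and lowered 2, and JQ-1 without ligand raised 1 and lowered 2. Enzalutamide raised 1 and lowered 1 in stripped serum and changed 1 up and 1 down in V16D cells. MR49F cells were higher than V16D cells for 2 of 5, C17orf96 (0.74) and LCOR (0.61).

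PRC1, the complex that binds the mark set by PRC2, was represented by 21 genes. DHT raised 3 and lowered 11 (14 of 21 called, against 72.1% of all genes, with a median of -0.16 and -0.083 over all genes), with BCOR, a corepressor in a variant PRC1, at -0.78, and PHC1 at -1.05. JQ-1 raised 6 and lowered 6 (median -0.067), and SCMH1 fell by 0.88. Under TMM scaling of FPKM, DHT raised 3 and lowered 8, and JQ-1 raised 7 and lowered 6. With DHT the addition of JQ-1 raised 7 and lowered 9, a balance that turned to 8 and 7 with TMM-scaled FPKM, with PCGF2 at -0.90 and SCMH1 at -1.19. Enzalutamide in stripped serum raised 1, CBX2 at 0.46, and lowered 4. In full serum 9 of 20 tested were higher and 3 lower in MR49F cells, among the latter RNF2, the catalytic ubiquitin ligase, at -1.13 (20.3 ± 1.65 against 44.2 ± 1.1 CPM), and enzalutamide raised 7 and lowered 2 in V16D cells and raised 1, CBX6, in MR49F cells.

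The genes listed as counterparts at lysine 27 and lysine 4 of histone H3, 9 beside KDM6B, fell mostly with DHT, 7 lower and 1 higher (median -0.18, 5 and 2 with TMM-scaled FPKM). The list also holds ASXL1 and BAP1, and listing does not mean that a gene acts on these marks itself. KDM6A, the relative of KDM6B, fell from 114 ± 3.7 to 56.2 ± 1.77 FPKM (-1.01), and MLL3, a lysine 4 methyltransferase, from 29.4 ± 2.14 to 12.3 ± 0.604 FPKM (-1.20). Enzalutamide lowered 4, KDM6A by 0.41 and MLL3 by 0.69. JQ-1 lowered 5 and raised 1 (3 and 2 with TMM scaling), and JQ-1 with DHT raised 4, MLL3 at 0.49, and lowered 5 (4 with TMM scaling). In V16D cells enzalutamide raised 2, KDM6A at 0.45, and lowered 2, and between the lines 3 were higher and 4 lower in MR49F cells, SMARCA4 at 0.85.

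Of the 4 genes described as silenced by EZH2 in prostate cancer cells, 2 were tested in stripped serum, and 1 rose and 1 fell with DHT, with enzalutamide and with JQ-1 alike. DAB2IP, the gene that fell each time, fell with DHT from 7.0 ± 0.354 to 2.84 ± 0.117 FPKM (-1.06), with enzalutamide by 0.35 and with JQ-1 by 0.57 in stripped serum. In V16D cells in full serum, enzalutamide raised 1, DAB2IP at 0.16, and lowered 2 of 3 tested (median -0.76). Of the 4 androgen-repressed genes that LSD1 is known to act on, 2 of 2 tested fell with DHT, and likewise with enzalutamide and with JQ-1 in stripped serum. OPRK1, an opioid receptor, fell with DHT from 11.8 ± 0.442 to 0.785 ± 0.0857 FPKM (-2.84). Enzalutamide lowered it by 0.63 in stripped serum and raised it in full serum, by 1.92 in V16D and 0.74 in MR49F cells. JQ-1 without ligand lowered OPRK1 by 2.08.

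Over the 18 stripped serum samples, which share conditions and serum, the pattern of log2(FPKM + 1) of each member was compared with that of 8512 genes averaging at least 5 FPKM, as a description. Closest to EZH2 were NCL (Pearson r = 0.98), WDR3 (0.979) and NOP56 (0.979), 3 genes of ribosome production in the nucleolus. Closest to RCOR1 were RALGAPA1 (0.996), FAM13B (0.995) and STK38L (0.995). JARID2 was closest to HIBADH (0.982), SNRK-AS1 (0.979) and SRGAP2 (0.976), RBBP4 to BZW2 (0.988), PDIA6 (0.98) and SLC39A14 (0.979), and KDM6B to LDHD (0.952), SSBP3 (0.95) and the cell cycle inhibitor CDKN1A (0.949). EZH1 was closest to AUTS2 (0.952), SUZ12 to CAMLG (0.958), EED to C10orf137 (0.887), RBBP7 to LLPH (0.946) and KDM1A to PPM1G (0.948). Against 15 proliferation genes the median r was 0.925 for EZH2 and 0.872 for RBBP4 but -0.692 for EZH1 and -0.631 for SUZ12, the other members with an E2F word, and -0.952 for RCOR1, -0.856 for JARID2 and -0.709 for KDM6B. It was 0.396 for RBBP7, 0.476 for KDM1A and -0.551 for EED. Single proliferation genes departed from these medians, with r from -0.00246 to 0.956 for EZH2, -0.239 to 0.936 for RBBP4 and -0.986 to 0.387 for RCOR1. Among the members, EZH2 ran opposite to JARID2 (r = -0.886) and RCOR1 (r = -0.891), JARID2 ran with KDM6B (r = 0.901), and RBBP7 with KDM1A (r = 0.871).

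The 20 transcripts were uneven in use. EZH1, SUZ12, RCOR1 and KDM6B had 1 transcript each. Of the 5 EZH2 transcripts, the leading transcript of full serum held 60.2% to 72.2% of the EZH2 FPKM there (means by condition) and 15% to 46.2% in stripped serum, while another held 21.5% to 27.5% in full serum and 34.8% to 67.6% in stripped serum. Over single samples the leading transcript held 55.9% to 81.9% in full serum and 0.0417% to 53.2% in stripped serum, whereas the other overlapped widely, at 8.64% to 38.8% and 0.398% to 87.5%. For KDM1A the leading transcript held 65.6% to 77.1% over all conditions, for JARID2 58.3% to 96.4%, for RBBP4 89.7% to 96.3%, for RBBP7 94.3% to 98.5% and for EED 62.8% to 94.5%. Transcripts of a gene share most of their sequence and single-end reads of 50 bases rarely separate them, so the shares are estimates, and the difference between serum experiments for EZH2 was not tested.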

How the data were processed

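Poly(A) RNA of 30 samples (10 conditions, 3 replicates) was sequenced from strand-specific libraries as single reads of 50 bases. According to the methods and the submitters' processing notes, the authors aligned reads with TopHat2 2.0.9 to GRCh37, deposited raw read counts per gene from HTSeq, and gave FPKM (Cufflinks 2.1.1, 1 value for each RefSeq transcript) in the other deposited files. Which strand was counted is not given in the sources used here. FPKM were summed per gene here. Counts were tested with edgeR 4.0.16 (TMM, filterByExpr with a minimum count of 10, quasi-likelihood F test) and FPKM with limma 3.58.1 on log2(FPKM + 1), a scale that understates changes of low genes, after removing genes that reached 1 FPKM in fewer than 3 samples (R 4.3.3). All genes were fitted, Benjamini-Hochberg adjustment ran over all genes tested, and an adjusted p of at most 0.05 was a call. Each fit held the groups compared. Count rows that name no gene were left out.

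The alternatives were DESeq2 1.42.0, DESeq2 size factors in edgeR, no filter, a pseudocount of 0.1, TMM-scaled FPKM, limma on FPKM in full serum, all groups in 1 fit, a replicate block, and leaving out each sample. On simulated data with 200 genes changed 4-fold, drawn from the means of the full serum V16D enzalutamide comparison (14045 genes), edgeR recovered 200 genes with 10 false calls. For enzalutamide in stripped serum, limma recovered 193 of 193 tested (13011 genes, 11 false calls). The spread between simulated replicates was set by hand. For limma the simulated depth was raised above that of the stripped serum counts, and gene lengths were drawn at random. Only 4-fold changes of well-counted genes were simulated, so recovery of smaller changes, such as those of the members, was not tested. Exon overlaps came from GENCODE 44 mapped to GRCh37 and promoters from RefSeq (GRCh38.p14). No protein sequence was used here.

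The named genes are the 10 members, up to 3 genes per list and comparison with the largest change among called genes averaging at least 5 FPKM or CPM in the higher group, and the genes most like each member. Members and lists were chosen with earlier results of these data known. Older and newer symbols of a gene were counted as 1 gene. Results of some listed genes are not reported here.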

Additional observations from a re-analysis of the deposited data

Results flagged for a closer look

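These results were flagged because the effect of JQ-1 differed with the ligand by an interaction test, with Benjamini-Hochberg adjustment over all genes. On FPKM (limma), the effect of JQ-1 with DHT minus its effect with vehicle was -0.75 for EZH2, 0.52 for JARID2, 0.37 for RCOR1, 0.16 for EZH1, -0.15 for RBBP7 and -0.14 for KDM1A, on the log2 scale. The effect of JQ-1 with enzalutamide minus its effect with vehicle was -0.44 for EZH2, 0.29 for JARID2 and -0.19 for KDM1A. On read counts (edgeR), EZH2 alone was flagged, at -0.92 for DHT (SE 0.263, adjusted p = 0.0147). The interactions share the vehicle and JQ-1 samples and are not independent of each other.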

How the results depend on the processing

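In all settings tried no called change of a member reversed. Of the member results called in the report, 818 repeats kept their call and 90 lost it, and of those not called 1569 stayed uncalled and 63 were called. Counts of members called moved by more than 1.5 times as follows. Enzalutamide in MR49F cells in full serum gave 2 calls with all groups in 1 fit and 0 with limma on FPKM (1 in the report), and the interaction of line and enzalutamide gave 1 without a filter (0 in the report). In stripped serum, enzalutamide on counts gave 2 with all groups in 1 fit (0 in the report), JQ-1 on FPKM gave 8 with TMM scaling (5 in the report), JQ-1 added to enzalutamide on FPKM gave 8 with TMM scaling (5 in the report), and the interaction of DHT and JQ-1 on counts gave 0 with DESeq2 (1 in the report). With 1 sample left out, calls in full serum ranged from 5 to 6 (V16D, enzalutamide), 0 to 4 (MR49F, enzalutamide), 0 to 2 (interaction) and 5 to 7 (between lines). In stripped serum on FPKM they ranged from 3 to 5 (enzalutamide), 9 to 10 (DHT), 6 to 8 (DHT against enzalutamide), 3 to 4 (JQ-1), 5 to 7 (JQ-1 with enzalutamide), 6 to 8 (JQ-1 with DHT), 3 to 4 (enzalutamide interaction) and 3 to 7 (DHT interaction), and on counts, in the same order, from 0 to 2, 4 to 5, 0 to 0, 2 to 3, 3 to 4, 4 to 6, 0 to 0 and 0 to 2. The cause of these changes was not tested. In stripped serum the count tests are limited by low counts and by the strand that was counted, which is not known.

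The labels number the replicates of each group, but a correlation of deviations over 0.1 was found for 4 of 18 same-numbered pairs of samples on counts in full serum, 5 of 45 in stripped serum, and 2 of 18 and 12 of 45 on FPKM, so the numbers were not taken to pair samples. As a hint from the data, a sample correlated best with its own number among 3 in 21 of 36 comparisons on counts in full serum, 41 of 90 in stripped serum, and 12 of 36 and 32 of 90 on FPKM. With a replicate block, enzalutamide in stripped serum on counts gave 2 calls, JARID2 and KDM6B (0 in the report), and the interaction of DHT and JQ-1 on counts gave 2, with RBBP7 gained (1 in the report). In the other comparisons the replicate block left the number of calls within 1.5 times that in the report but exchanged some. It lost KDM1A between the lines and with enzalutamide on FPKM, RBBP4 with DHT on counts and against enzalutamide on FPKM, and EZH1 with JQ-1 on FPKM (adjusted p = 0.054 to 0.0724). It gained EZH2 between the lines, RBBP7 with JQ-1 on FPKM and KDM6B in the DHT interaction on FPKM (adjusted p = 0.0398 to 0.0486).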
